A study of Oncorhynchus mykiss with 12 samples.

Results

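Lipid droplets are the organelles in which cells store neutral fat, and the genes described here encode their coat proteins, the enzymes that fill and empty them, and a fatty acid carrier. Rows of an RNA-Seq table from rainbow trout (Oncorhynchus mykiss) dorsal skin were taken when their symbol, ignoring case and an a or b copy ending, was plin1, plin2, plin3, plin6, dgat1, dgat2, g0s2, pnpla2, lipe or fabp4. This gave 34 rows of 42290, 33 of them under an NCBI identifier and 1 (Pnpla2, MSTRG.16912) an assembled transcript. The genes were selected on their measured difference between the genotypes, above all that of plin6, dgat2 and g0s2, with their families added by name, so differences between genotypes are given for these genes as descriptions, and calls among them in the fit over all rows support nothing.

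The study compared dorsal skin of wild-type rainbow trout with that of the yellow mutant, a colour form with yellow skin, with 3 RNA-Seq samples per genotype. The series text places both in the F1 generation of a cross of wild-type males with yellow mutant females. No age, sex or treatment was given, and the labels do not say whether a sample is 1 fish or a pool, so the spread between samples may in part be technical. Values are FPKM, the authors' count of fragments scaled to transcript length and to the mapped fragments of the library, so levels of different genes can be set side by side.

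The 6 libraries summed to 396278 to 428561 FPKM, and 34837 to 35705 rows were above 0 in each. Absolute depth is unknown. From the steps of the low values, depth relative to wild-type replicate 1 was 0.903 to 1.01 in the other wild-type libraries and yellow mutant replicate 1, 0.811 in yellow mutant replicate 3 and 0.582 in yellow mutant replicate 2. For this last library a second solution, 1.16, had 82.8% of the weight of the first, so its depth is the least certain. The other libraries compared also had a second solution, with 42.6% to 64.9% of the weight of the first. Their relative depths are therefore not settled either. Yellow mutant replicate 2 was also the lowest of the 6 samples for several genes below. Skin markers were present in every library, with summed levels of 1067 to 2097 FPKM for a keratinocyte list and 27046 to 38354 FPKM for a dermal fibroblast list.

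Perilipins coat the droplet and control access of lipases to it. DGAT1 and DGAT2 complete triglyceride synthesis, whereas Pnpla2 (adipose triglyceride lipase) and LIPE (hormone-sensitive lipase) carry out the first steps of its breakdown, and in mammals G0s2 inhibits Pnpla2. Fish skin holds droplets in fat cells and also in xanthophores, the yellow pigment cells, which keep carotenoids dissolved in lipid. In zebrafish, perilipin 6 coats these pigment-carrying droplets. Trout carry many gene copies from genome duplication, and no source used here says how reads that fit several copies were counted, which leaves each copy's value uncertain.

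Of the 34 rows, 24 reached 0.5 FPKM in at least 3 of the 6 samples and were tested together with all such rows of the table, 27268 in number. The other 10 were barely detected, with no genotype mean above 0.495 FPKM, and 1 of them (DGAT2, gene 110503985) was listed at 0 in every sample. The 10 were 4 of the 8 pnpla2 rows, 4 of the 6 dgat2 rows, 1 of the 5 dgat1 rows and 1 of the 4 plin2 rows. Both fabp4b and Dgat1 (gene 110496672) reached the minimum in only 1 wild-type sample each and so passed mainly through the yellow mutant samples.

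In wild-type skin the levels of the 24 rows spanned from 293 ± 75.3 FPKM for G0s2 (gene 110492049) to 0.376 ± 0.144 FPKM for Dgat1 (gene 110496672) (SD, n = 3). The first place in this order stood apart, since the lowest wild-type value of that G0s2 copy, 208 FPKM, exceeded the highest value of the next gene, g0s2 (gene 110532623), at 138 FPKM. Below it, plin1, the perilipin of fat cells, was at 103 ± 30.0 FPKM, G0s2 (gene 110494987) at 92.5 ± 31.2 FPKM and dgat2 (gene 110537459) at 50.4 ± 18.3 FPKM. Of the 23 pairs of neighbours in the order, 17 had overlapping wild-type ranges and did not differ beyond their spread. The other 6 pairs had no overlap. plin6 stood in the middle of the order in wild-type skin, at 7.36 ± 0.55 FPKM, below PLIN2 (gene 110500648) at 14.4 ± 1.29 FPKM without overlap. Another PLIN2 copy (gene 110531797), at 5.87 ± 1.25 FPKM, had a range that overlapped that of plin6 but was below plin6 in each wild-type sample.

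**Figure D1:**
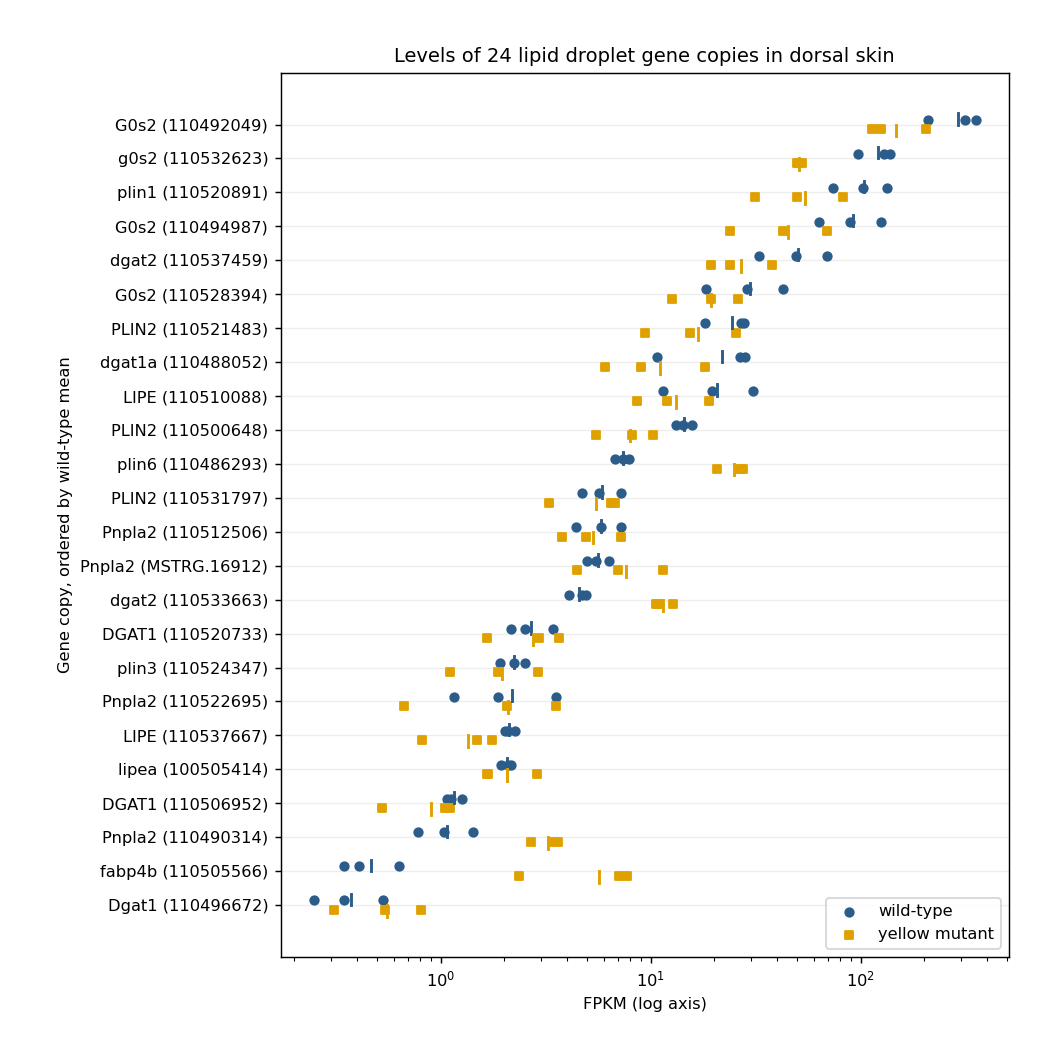
FPKM of the 24 tested copies in each sample (log axis), with wild-type samples as circles, yellow mutant samples as squares and short vertical bars at the mean of each genotype (n = 3). plin6, dgat2 (gene 110533663), Pnpla2 (gene 110490314) and fabp4b have all squares to the right of all circles, while a pair of g0s2 copies, PLIN2 (gene 110500648) and LIPE (gene 110537667) have them to the left.

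Between genotypes the copies split. In 4 of the 24 tested rows every yellow mutant sample lay above every wild-type sample, and in 4 every one lay below. Over all 27268 rows tested these shares were 6.07% and 4.92%. In 16 rows the genotypes overlapped. The 4 higher rows include fabp4b, which reached the minimum in only 1 wild-type sample and so passed mainly through yellow mutant samples. With limma over all rows (Benjamini-Hochberg adjusted), 1 of the 24, plin6, passed as higher and 0 as lower, against 0.033% and 0% of all rows. At an unadjusted p under 0.05 in the same fit, 930 of the 27268 rows were higher and 707 lower. Fits with a 5 FPKM minimum or without trend or robust each called 1 row lower, which was no lipid droplet gene. The count of 1 became 0 without any 1 library other than yellow mutant replicate 1, and 2 (plin6 and fabp4b) without that one. In the authors' deposited table, whose test is not stated, 4 of the 34 rows were higher and 1 was lower at an FDR under 0.05, against 0.229% and 0.0969% of the 42290 rows. Since this comparison chose the genes, nothing is read from these counts. The median difference of the 24 rows was -0.18 on the log2(FPKM + 1) scale, beside 0.01 for all rows tested.

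Among the coat proteins, plin6 (gene 110486293) was at 6.79, 7.89 and 7.40 FPKM in the wild-type samples 1, 2 and 3 and at 20.7, 26.5 and 27.5 in the yellow mutant samples, an order of samples kept in all such lists. The lowest yellow mutant value was thus far above the highest wild-type value, and the means differed 3.38-fold. plin6 varied little within a genotype, with a coefficient of variation of 7.47% in wild-type and 14.7% in yellow mutant skin.

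The other perilipins did not share this pattern. plin1 (gene 110520891), the coat of large droplets in fat cells, was at 102, 134 and 73.9 FPKM in the wild-type samples and at 82.3, 31.4 and 49.9 in the yellow mutant samples. The genotypes overlapped, because yellow mutant replicate 1 exceeded wild-type replicate 3. PLIN2 (gene 110500648), a coat protein of small droplets in many cell types, was at 14.3, 15.7 and 13.1 FPKM in the wild-type samples and at 8.15, 5.47 and 10.3 in the yellow mutant samples, with no overlap and a mean 1.81-fold higher in wild-type. A further row with the symbol PLIN2 (gene 110521483), whose product is perilipin-3, had means of 24.3 ± 5.26 and 16.8 ± 8.18 FPKM, and PLIN2 (gene 110531797) of 5.87 ± 1.25 and 5.51 ± 1.93 FPKM (SD, n = 3 each). plin3 (gene 110524347), a coat protein of newly forming droplets, was low, at 2.22 ± 0.298 and 1.97 ± 0.91 FPKM. The 4 rows with the symbol PLIN2 summed to 37.1 to 49.9 FPKM in wild-type and 18.2 to 40.6 FPKM in yellow mutant skin. These sums overlapped between genotypes, but the perilipin-3 row held 47.9% to 63.1% of them. They therefore do not describe perilipin-2 alone.

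The tested dgat2 copies, which encode an enzyme of the last step of triglyceride synthesis, had means that differed in opposite directions. Only the minor copy was without overlap between genotypes. The minor copy (gene 110533663) was at 4.91, 4.11 and 4.70 FPKM in the wild-type samples and at 11.0, 12.8 and 10.6 in the yellow mutant samples. All yellow mutant samples were above all wild-type samples, and the means differed 2.51-fold. The major copy (gene 110537459) was at 49.3, 69.3 and 32.7 FPKM in the wild-type samples and at 37.8, 19.4 and 24.0 in the yellow mutant samples, with yellow mutant replicate 1 inside the wild-type range. The major copy made up 87.2% to 94.3% of dgat2 FPKM in wild-type and 59.9% to 77.4% in yellow mutant skin, and these ranges did not overlap. The remaining 4 dgat2 rows stayed at or below 0.103 FPKM in every sample.

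dgat1, the other enzyme of this step, was carried mostly by dgat1a (gene 110488052), which held 64.5% to 86% of the dgat1 FPKM. It was at 26.7, 28.3 and 10.7 FPKM in the wild-type samples and at 18.1, 6.07 and 9.05 in the yellow mutant samples, so wild-type replicate 3 lay with the yellow mutant samples. DGAT1 (gene 110520733) was at 2.69 ± 0.647 and 2.75 ± 1.02 FPKM and DGAT1 (gene 110506952) at 1.15 ± 0.101 and 0.897 ± 0.323 FPKM (SD, n = 3 each), both with overlap.

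All 4 g0s2 copies, which encode an inhibitor of triglyceride breakdown in mammals, had lower means in yellow mutant skin. g0s2 (gene 110532623) was at 138, 129 and 97.6 FPKM in the wild-type samples and at 50.5, 50.0 and 52.7 in the yellow mutant samples. The yellow mutant samples were close to each other, with a coefficient of variation of 2.89%, and all below the wild-type samples, whose mean was 2.37-fold higher. The most abundant copy, G0s2 (gene 110492049), was at 316, 353 and 208 FPKM and at 204, 113 and 125 FPKM, so its ranges were separated only by the small gap between wild-type replicate 3 and yellow mutant replicate 1. G0s2 (gene 110494987) was at 92.5 ± 31.2 and 45.4 ± 22.8 FPKM and G0s2 (gene 110528394) at 29.9 ± 12.2 and 19.4 ± 6.76 FPKM, and their ranges overlapped. The 4 copies together gave 413 to 650 FPKM in wild-type and 206 to 350 FPKM in yellow mutant skin.

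Of the lipases, the Pnpla2 copies were mixed. Pnpla2 (gene 110490314) was at 1.03, 0.781 and 1.42 FPKM in the wild-type samples and at 3.40, 2.69 and 3.63 in the yellow mutant samples. It was higher in every yellow mutant sample, with a 3.01-fold difference of means. In RefSeq (assembly USDA_OmykA_1.1, used for names and gene order only) it lies next to PNPLA2 (gene 110490313) with no gene between them, and that neighbour was at 0.039 to 0.561 FPKM with overlapping genotypes. The 3 most abundant of the other copies, Pnpla2 (gene 110512506), the assembled transcript MSTRG.16912 and Pnpla2 (gene 110522695), had wild-type means of 5.82, 5.60 and 2.19 FPKM and yellow mutant means of 5.31, 7.62 and 2.09 FPKM, all with overlap. The sum of the 8 pnpla2 rows was 12.4 to 19.4 FPKM in wild-type and 15.5 to 22.5 FPKM in yellow mutant skin.

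LIPE (gene 110510088), the main copy of hormone-sensitive lipase, was at 11.4, 19.7 and 30.7 FPKM in the wild-type samples and at 12.0, 8.59 and 19.0 in the yellow mutant samples. It was highest in wild-type replicate 3, the wild-type sample with the least plin1. LIPE (gene 110537667) was at 2.09, 2.27 and 2.02 FPKM and at 1.50, 0.813 and 1.75 FPKM, lower in every yellow mutant sample, with a mean 1.57-fold higher in wild-type. lipea (gene 100505414) had equal means within the spread, 2.07 ± 0.117 and 2.08 ± 0.70 FPKM (SD, n = 3 each).

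fabp4b (gene 110505566), a cytosolic fatty acid-binding protein, was at 0.41, 0.348 and 0.636 FPKM in the wild-type samples and at 2.35, 7.05 and 7.69 in the yellow mutant samples. Its 12.3-fold difference of means was the widest of the 24 rows, and it came from near-absent wild-type levels. Yellow mutant replicate 1 was about a factor of 3 below the other yellow mutant samples, and the coefficient of variation there was 51.1%.

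Some of the abundant copies, but not all, rose and fell with plin1 from sample to sample. plin1 ranged 4.27-fold over the 6 samples, highest in wild-type replicate 2 and lowest in yellow mutant replicate 2. Divided by plin1 in the same sample, dgat2 (gene 110537459) stayed between 0.443 and 0.617 and G0s2 (gene 110492049) between 2.48 and 3.61, so their ratios to plin1 ranged 1.39-fold and 1.45-fold. dgat1a and the perilipin-3 row (gene 110521483) ranged 1.80-fold and 1.55-fold in the same ratio. Other abundant copies held it less closely, since it ranged 1.95-fold for G0s2 (gene 110494987), 2.08-fold for PLIN2 (gene 110500648), 2.49-fold for G0s2 (gene 110528394), 2.60-fold for g0s2 (gene 110532623) and 3.74-fold for LIPE (gene 110510088). Of the 23 tested copies besides plin1, 10 ranged less in their ratio to plin1 than in their own level, and 13 ranged more. A copy that ranges little in level must range more in the ratio, because plin1 itself ranged 4.27-fold. The 13 are therefore not shown to vary apart from plin1, and no such count was made over all rows.

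Fat cell genes that are not among the 10 symbols were divided by the same measure. Of 12 tested rows of cidec, lpl, mogat3, fasn, pparg and adipoq, 6 ranged less in their ratio to plin1 than in their own level, and 6 ranged more. Among the first, cidec (gene 110527935), which fuses droplets in fat cells, ranged 5.75-fold in level but stayed at 0.228 to 0.321 of plin1. lpl (gene 100136622), the lipase that releases fatty acids from blood lipoproteins, ranged 4.52-fold and stayed at 0.788 to 0.925 of plin1. Both were named here after their values were seen. Among the second, pparg (gene 110528708), a nuclear receptor that directs fat cell formation, ranged 1.71-fold in level and 2.5-fold in the ratio. Its order of samples was nevertheless that of plin1. LPL (gene 110501969) ranged 1.48-fold and 2.90-fold, FASN (gene 110502946), a copy of fatty acid synthase, 1.86-fold and 2.55-fold, and mogat3b (gene 110533733) 1.75-fold and 3.85-fold. Rows that range this little in level must range more in the ratio, since plin1 itself ranged 4.27-fold. Their place among the second does not show that they varied apart from plin1. The hormone gene adiponectin also belonged among the second. Its copy adipoqb (gene 100653481) was at 1.05 to 2.44 FPKM and highest in yellow mutant replicate 2, where plin1 was lowest.

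The ratio to plin1 was higher in every yellow mutant sample than in any wild-type sample for 9 of the 23 copies and lower for 0. The plin1 mean was itself lower in the yellow mutant, 54.5 against 103 FPKM. A copy with equal levels in both genotypes therefore tends to a higher ratio there. Without a count over all rows tested, nothing is read from 9 against 0. The 9 were the 4 copies whose own level was higher and 5 whose own levels overlapped. The 5 were plin3, DGAT1 (gene 110520733), lipea, PLIN2 (gene 110531797) and the perilipin-3 row (gene 110521483). plin3, for example, was at 0.0188 to 0.026 of plin1 in wild-type and at 0.0354 to 0.0375 in yellow mutant skin. Over the 6 samples the ratios ranged 13.3-fold to 86.5-fold for the 4 copies and 1.55-fold to 3.37-fold for the 5. plin6 was at 0.0589 to 0.10 of plin1 in wild-type and at 0.252 to 0.845 in yellow mutant skin. The minor dgat2 copy (gene 110533663) was at 0.0307 to 0.0636 and at 0.134 to 0.408 of plin1. g0s2 (gene 110532623) was at 0.961 to 1.34 of plin1 in wild-type and at 0.613 to 1.59 in yellow mutant skin, a range that held the wild-type values, although its own level did not overlap.

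**Figure D2:**
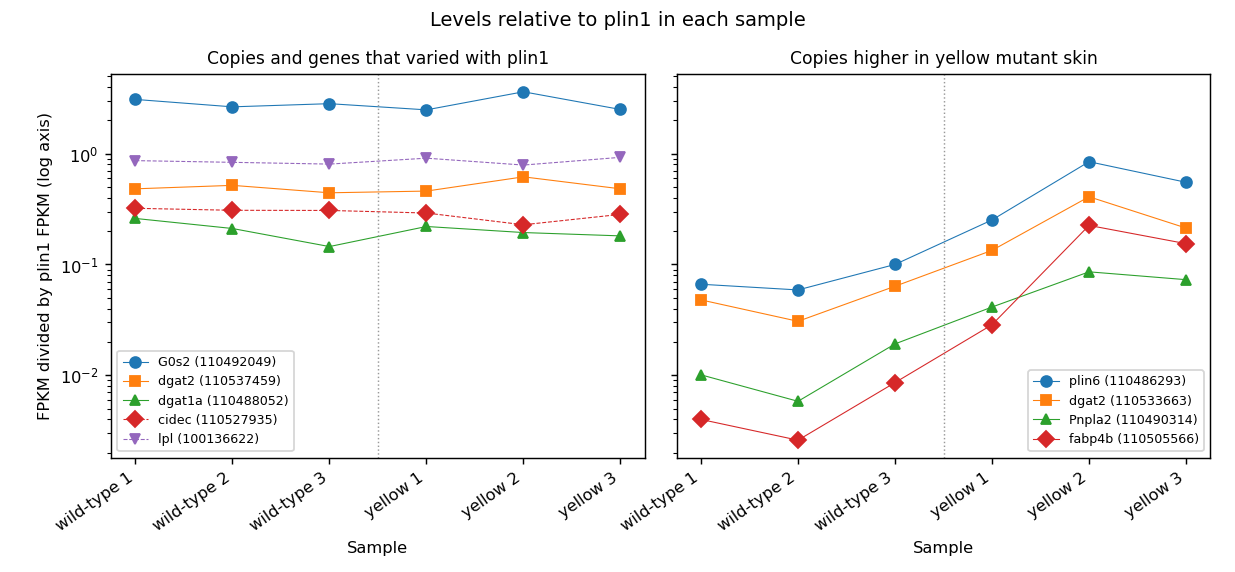
FPKM of single genes divided by plin1 FPKM in the same sample (log axis), in the 3 wild-type and 3 yellow mutant (yellow 1 to 3) samples, with thin lines that only link points of 1 gene. On the left the ratios of G0s2 (gene 110492049), dgat2 (gene 110537459), dgat1a, cidec and lpl stay within a factor of 1.80 over the 6 samples. cidec and lpl were picked after their values were seen, and 6 of 12 such fat cell rows ranged more in this ratio than in level. Rows that range little in level must do so, since plin1 itself ranged 4.27-fold. On the right the ratios of plin6, dgat2 (gene 110533663), Pnpla2 (gene 110490314) and fabp4b are higher in each yellow mutant sample than in any wild-type sample.

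Markers of several cell types also differed in level between the samples, and their part in the differences of the lipid droplet genes was not tested. In bulk skin, fewer cells of a type and less RNA per cell cannot be told apart. A xanthophore list of 11 names, 9 of them found in 21 rows, had 13 rows tested, of which 8 were higher in every yellow mutant sample and 0 lower. Over all rows tested these shares were 6.07% and 4.92%. Of the 13, 9 were above and 4 below 0 in their log2 difference. Its summed level was 67.0 to 74.5 FPKM in wild-type and 146 to 170 FPKM in yellow mutant skin. The genes aox5 and pax3 of this list stayed under 0.5 FPKM, and the symbols gch2 and csf1r had no row.

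A melanophore list (9 names, 28 rows, 20 tested) had 11 rows higher in every yellow mutant sample and 0 lower, beside 6.07% and 4.92% of all rows tested. Its summed levels were 396 to 425 and 476 to 679 FPKM. The 11 include a DCT copy (gene 110520165) that reached the minimum through yellow mutant samples alone, so its lack of overlap was fixed beforehand. An iridophore list (7 names, 13 rows, 10 tested) had 0 rows apart in either direction and summed to 105 to 121 and 107 to 122 FPKM, with gbx2 at 0. Like all marker lists used here, the 3 lists of pigment cells were chosen with earlier results of these data known.

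An adipocyte list without the 10 symbols (8 names, 7 of them found in 20 rows, 13 tested) summed to 546 to 659 FPKM in wild-type and 502 to 535 FPKM in yellow mutant skin. One cfd row (gene 110514148), at 263 ± 17.2 and 293 ± 67.5 FPKM (SD, n = 3 each), held much of this sum. Of the 13 adipocyte rows tested, 3 were above and 10 below 0 in their log2 difference. Without overlap, 1 was higher and 0 lower in yellow mutant skin, beside 6.07% and 4.92% of all rows tested. Leptin (lep) stayed under 0.5 FPKM, and fabp11 had no row. Endothelial markers (6 names, 12 rows, 10 tested) summed to 50.0 to 77.4 FPKM and 35.7 to 59.2 FPKM, and like plin1 were highest in wild-type replicate 2 and lowest in yellow mutant replicate 2. The dermal fibroblast sums (7 names, 18 rows) ran from 29885 to 38354 and from 27046 to 33366 FPKM, with the same highest and lowest samples. Of the endothelial rows tested, 0 were above and 10 below 0, with 0 higher and 2 lower without overlap. Of the fibroblast rows, 2 were above and 16 below 0, with 0 apart in either direction.

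Other tissues varied without this order. Skeletal muscle markers (7 names, 6 of them found in 34 rows) summed to 1489 to 4052 FPKM in wild-type and 2119 to 5185 FPKM in yellow mutant skin, highest in yellow mutant replicate 2. Erythrocyte markers (6 names, 4 found in 36 rows) summed to 193 to 569 and 257 to 381 FPKM, and macrophage markers (6 names, 3 found in 12 rows) to 37.8 to 42.3 and 28.4 to 37.0 FPKM. Above 0 in their log2 difference were 20 of 29 tested skeletal muscle rows, 0 of 9 erythrocyte rows and 3 of 10 macrophage rows. Without overlap, 1 skeletal muscle row was higher and 0 lower, and 0 erythrocyte or macrophage rows were apart in either direction. Keratinocyte markers (9 names, 8 found in 24 rows) summed to 1067 to 1567 and 1552 to 2097 FPKM, which overlap, with all 20 tested rows above 0 in their log2 difference. Only 1 of the 20 was higher without overlap and 0 were lower, beside 6.07% and 4.92% of all rows tested.

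**Figure D3:**
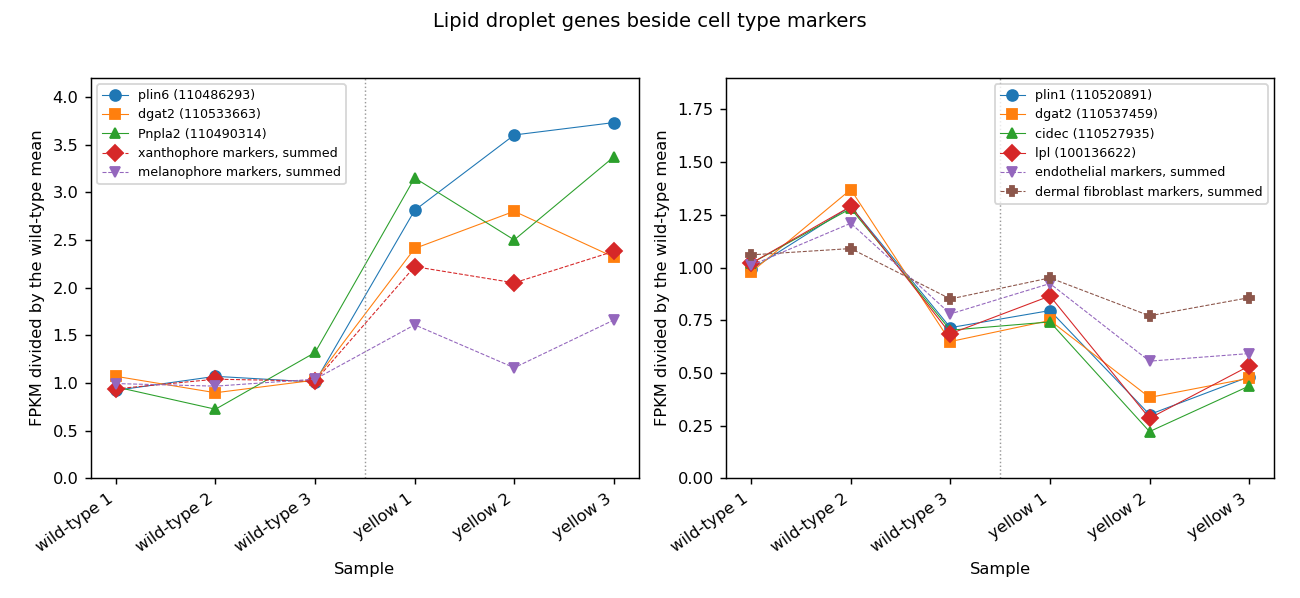
FPKM in each sample divided by the mean of the 3 wild-type samples, for single lipid droplet genes and fat cell genes (solid thin lines) and for summed cell type marker lists (dashed lines), with lines that only link points of 1 item. On the left plin6 reaches 2.81 to 3.73 and the xanthophore sum 2.05 to 2.38 in yellow mutant samples (yellow 1 to 3). On the right plin1, dgat2 (gene 110537459), cidec and lpl follow each other. They stand at 1.29 or more in wild-type replicate 2 (1.28 for cidec) and at 0.384 or less in yellow mutant replicate 2. cidec and lpl were picked after their values were seen. The summed adipocyte list, not drawn, was at 0.929 to 1.12 in wild-type and 0.853 to 0.909 in yellow mutant samples. Its lowest value was in yellow mutant replicate 1.

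Genes with the most similar pattern over the 6 samples were ranked by Pearson's r of log2(FPKM + 1) among 21899 named rows of at least 1 FPKM. With so many rows and 6 samples that share libraries and genotypes, a high r is expected somewhere in the list, and it is given as a description. Nearest to plin6 were mlana (melan-A, a melanosome protein) at r = 0.997, EXOSC1 at 0.997, Emg1 at 0.994, S100a4 (ictacalcin, a calcium-binding protein) at 0.994 and Gch1 (gene 110502330), which opens pteridine pigment synthesis, at 0.989. mlana was at 36.8, 39.4 and 40.0 FPKM in the wild-type samples and at 61.8, 66.6 and 70.3 in the yellow mutant samples. Its order of samples was that of plin6 within yellow mutant skin but not within wild-type skin. There plin6 was highest in replicate 2 and mlana in replicate 3.

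Nearest to the abundant dgat2 copy (gene 110537459) were cav1 (caveolin-1, a coat protein of membrane pits that fat cells and vessels hold in abundance) at r = 0.997, lxn at 0.995, gpat3 at 0.994, FGD6 at 0.994 and CYP2C3 at 0.993. gpat3 (gene 110537131), an enzyme of the first step of triglyceride synthesis, was at 5.20, 6.89 and 3.39 FPKM in the wild-type samples and at 4.05, 2.32 and 2.92 in the yellow mutant samples. Nearest to the abundant G0s2 copy (gene 110492049) were Daam1 at 0.998, rnf19a at 0.996, fn1a (fibronectin) at 0.995, TEAD1 at 0.994 and Rin2 at 0.994.

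The same ranking for the minor copies was added after their values were seen. Nearest to dgat2 (gene 110533663) were AKR1B1 (gene 110490236) at r = 0.994, pm20d1.2 at 0.993, Polr2e at 0.990, slc22a7a at 0.987 and S100a4 at 0.986. S100a4 was also among the 5 nearest rows of plin6. Both plin6 and this dgat2 copy were selected on their difference between the genotypes. A shared near row with such a difference was therefore likely beforehand, and nothing is read from it. Nearest to g0s2 (gene 110532623) were RBMS2 at 0.991, Sptbn1 at 0.990, exoc3l1 at 0.987, GSTK1 at 0.987 and anxa11a at 0.983.

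Other genes of fat storage, listed by role, were tested for a difference between the genotypes. Their lists were also chosen with earlier results of these data known. Of 95 names in 5 lists, 79 were found, in 199 rows, and 158 rows were tested. With limma, Benjamini-Hochberg adjusted over all 27268 rows, 0 of the 158 passed in either direction, and 26 had an unadjusted p under 0.05. Among all 27268 rows, 930 were higher and 707 lower at that unadjusted p, together a smaller share than 26 of 158. Since the lists were chosen with earlier results known, nothing is read from this. Every alternative fit that was run also called 0 of the listed rows it tested. Some of these fits called 0 of all rows, so their 0 here was settled beforehand. In the fit reported, 0.033% of all 27268 rows passed as higher and 0% as lower. In all, 14 of the 158 (8.86%) were higher and 16 (10.1%) lower in every yellow mutant sample, beside 6.07% and 4.92% of all rows tested. The 14 and the 26 both include a bscl2 copy (gene 110534923) that reached the minimum through yellow mutant samples alone. The median difference was -0.03 on the log2(FPKM + 1) scale.

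In the synthesis list (47 rows tested, 22 above and 25 below 0, median -0.00), soat1 (gene 110524440), which makes sterol esters for storage, was at 2.59, 3.28 and 3.99 FPKM in the wild-type samples and at 8.51, 5.97 and 7.17 in the yellow mutant samples. Its log2 difference was 0.94 ± 0.18 (SE; limma, Benjamini-Hochberg adjusted p = 0.26). AGPAT3 (gene 110495944), an acyltransferase of glycerolipid synthesis, had the largest negative difference among rows without overlap, at 8.62 ± 1.48 and 5.90 ± 1.21 FPKM (limma, Benjamini-Hochberg adjusted p = 0.769).

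In the droplet protein list (20 tested, 8 above and 12 below 0, median -0.05), a bscl2 copy (gene 110534923) was at 0.027, 0.199 and 0.03 FPKM in the wild-type samples and at 1.71, 3.11 and 6.83 in the yellow mutant samples. bscl2 encodes seipin, which shapes new droplets at the endoplasmic reticulum. This copy was close to absent from wild-type skin and present in all yellow mutant samples. It reached the minimum through yellow mutant samples alone, so its values are given without a test. RAB18 (gene 110490034), a small GTPase on droplets, was at 4.92 ± 0.0583 and 4.08 ± 0.496 FPKM (limma, Benjamini-Hochberg adjusted p = 0.885).

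In the breakdown list (28 tested, 18 above and 10 below 0, median 0.01), LIPA (gene 110498985), the acid lipase of lysosomes, was at 12.3, 13.4 and 11.1 FPKM in the wild-type samples and at 21.0, 17.3 and 18.9 in the yellow mutant samples (limma, log2 difference 0.59, standard error 0.15, Benjamini-Hochberg adjusted p = 0.544).

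In the uptake list (32 tested, 8 above and 24 below 0, median -0.16), FABP3 (gene 110496544), a fatty acid-binding protein, was at 135, 151 and 85.0 FPKM in the wild-type samples and at 44.4, 79.9 and 41.1 in the yellow mutant samples (limma, log2 difference -1.17, standard error 0.32, Benjamini-Hochberg adjusted p = 0.596). FABP7 (gene 110529571), of the same family, was at 7.32 ± 0.0538 and 10.2 ± 1.91 FPKM (limma, Benjamini-Hochberg adjusted p = 0.785).

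In the list of regulators (31 tested, 12 above and 19 below 0, median -0.05), PPARA (gene 110521393), a nuclear receptor for fatty acids, was at 11.8, 14.6 and 9.87 FPKM in the wild-type samples and at 9.05, 4.69 and 7.39 in the yellow mutant samples (limma, log2 difference -0.73, standard error 0.24, Benjamini-Hochberg adjusted p = 0.733). None of these genes passed, and with 3 samples per genotype that does not show equal levels.

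**Figure D4:**
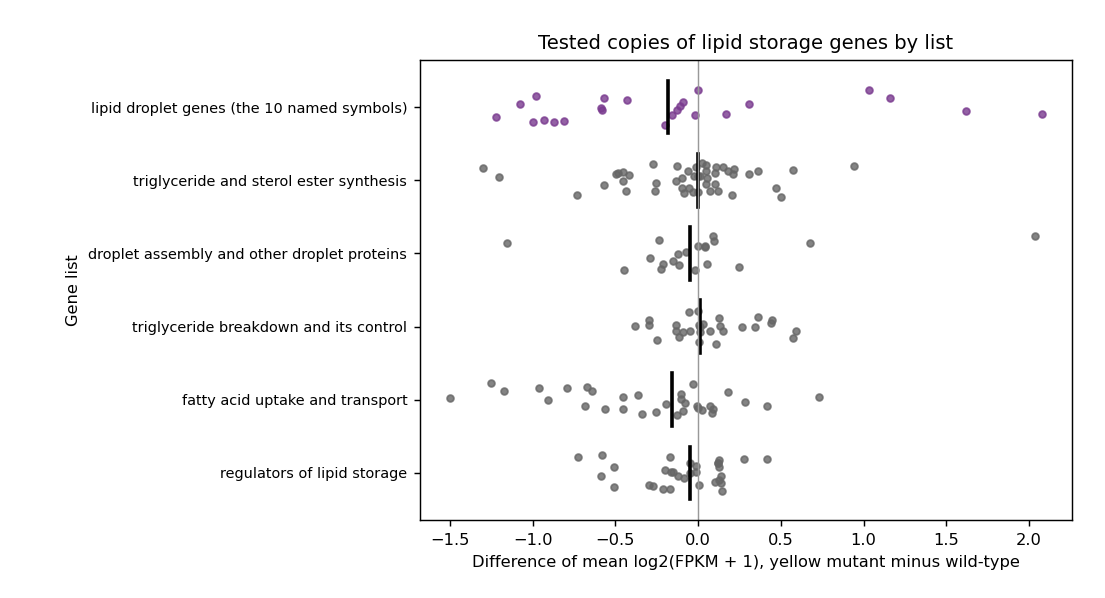
Difference of mean log2(FPKM + 1), yellow mutant minus wild-type, for each tested copy (points, spread vertically at random within a row) of the 10 named symbols and of 5 lists of other fat storage genes, with a black bar at the median of each row. The 24 tested copies of the named symbols spread from -1.22 for g0s2 (gene 110532623) to 2.08 for fabp4b, and the list medians lie between -0.18 and 0.01.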

How the data were processed

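FPKM values of 6 RNA-Seq libraries were made and deposited by the authors, with group means, a log2 fold change and an FDR, an adjusted p-value from an unnamed test, per the file headers. Bowtie2 2.2.8 and TopHat2 2.1.1 are listed per the submitters' processing notes, without a role. For the quantifier, genome build and annotation, the entry is not given in the sources used here. No result uses the miRNA table.

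Symbols were matched ignoring case and an a or b ending. The members, the lists of other genes and the markers were chosen with earlier results of these data known. Rows at or above 0.5 FPKM in at least 3 of 6 samples were tested for genotype alone with limma 3.58.1 (R 4.3.3; two-sided; trend and robust on) after log2(FPKM + 1), and p-values were adjusted over all rows by Benjamini and Hochberg's method, with a threshold of 0.05. Such differences understate the change of low genes. An exact permutation test of 3 against 3 cannot go below 0.1 and was not used. The fit was tested on simulated data. Relative depth was the commonest ratio of low values to wild-type replicate 1.

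Named genes are every member, any other fat storage gene that passed, and per list the largest change in each direction among rows without overlap and at 1 FPKM or more, on average, in the higher genotype. One gene that this rule names is not reported here. The 5 nearest rows were also named. Alternatives were another pseudocount, other minimums, median-of-ratios scaling, a replicate block, limma without trend or robust, and leaving out each sample.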

Additional observations from a re-analysis of the deposited data

How the results depend on the processing

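Of the 24 tested copies, 18 kept the sign of their log2 difference under every alternative that gave a value, 5 did not, and DGAT1 (gene 110520733) was at -0.00. The count of lipid droplet genes called higher, which supports nothing since this comparison chose them, was 1 in the fit reported, 0 without a minimum on low values, 0 with the replicate block, 2 with a 5 FPKM minimum (plin6 and dgat2, gene 110533663), and 0 to 2 when 1 sample was left out. It was 0 without any 1 of the wild-type replicates or of yellow mutant replicates 2 and 3, and 2 (plin6 and fabp4b) without yellow mutant replicate 1. Over all rows, 9 were called higher and 0 lower. The count higher was 0 with the replicate block and 0 to 10 when 1 sample was left out (0 when it was number 1 or 3 of the wild-type or number 3 of the yellow mutant samples, and 1 when it was wild-type number 2). The count lower was 1 with a 5 FPKM minimum, 1 without trend or robust, and 0 to 4 when 1 sample was left out. The median of the tested copies was -0.59 with a 5 FPKM minimum, which leaves the abundant copies, and -0.33 to -0.02 when 1 sample was left out. Copies with small differences changed sign when 1 sample was left out, with ranges of -0.26 to 0.17 for PLIN2 (gene 110531797), -0.34 to 0.05 and -0.43 to 0.29 for Pnpla2 (genes 110512506 and 110522695), -0.20 to 0.08 for lipea and -0.39 to 0.06 for plin3. The replicate numbers were not taken to pair the samples, since deviations from the genotype means correlated at 0.12, -0.21 and 0.16 for numbers 1, 2 and 3, and 3 of 6 samples correlated best with their own number. Low copies are limited by unknown absolute depth.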
